A study of Sus scrofa with 6 samples.

Results

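The genes described are those of programmed cell death and of the TNF receptor family that could be found by name among the array's probes. They are the genes whose symbol begins with BCL2, CASP and a digit, TNFRSF, TNFSF, TRAF and a digit, or BIRC, together with MCL1, FAS, BID, BAX, BAK1, BAD and APAF1, each read from its brightest probe. The rule found 38 probes of 38 genes, among 10663 genes with a single symbol and 12258 probes in all. BAX, BAD, APAF1 and BIRC5 were not analysed here. RNA was measured in pools of 50 porcine oocytes on Affymetrix arrays, with 3 arrays before and 3 after maturation in culture. All pools came from pubertal crossbred Landrace gilts, and only oocytes of the best morphological grade with an even cytoplasm were kept, 300 in total. The matured group came from cumulus-oocyte complexes, oocytes still enclosed in their somatic cumulus cells, held for 44 h at 38 °C under 5% CO2 in TCM-199 medium with bovine serum albumin, cysteine, porcine follicular fluid, hCG and eCG. The other group is called in vivo in its titles, and its descriptions place it before maturation in culture. Effects of maturation and of the culture with its hormones cannot be told apart, since the pools before maturation were not kept in culture. A dye selection, the BCB test, is named in the design and is not assigned to single samples. Whether cumulus cells were removed before RNA extraction is not given in the sources used here.

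Proteins of the BCL2 family decide whether the outer mitochondrial membrane is opened. MCL1, BCL2 and BCL2L1 (BCL-XL) keep it closed, BAK1 forms the pores, and BID and BCL2L11 (BIM), which carry only the BH3 domain, trigger it. Released cytochrome c then activates caspase 9, whereas death receptors of the TNF receptor family such as FAS activate caspase 8 from the cell surface and can recruit BID to pass the signal to mitochondria. Most other TNF receptors bind TRAF adaptors, which lead to NF-kappaB and stress kinase signalling and often to survival. In the ovary, death of granulosa cells through these routes accompanies the loss of follicles, and oocytes themselves depend on BCL2 family proteins for survival.

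The arrays carried markers of oocytes and also of the somatic cells around them. Across probes, matured pools correlated at 0.994 to 0.995, pools before maturation at 0.989 to 0.993, and pools of different groups at 0.965 to 0.983, which describes the arrays, since genes are not replicates. For the oocyte markers BMP15 and GDF9 the mean log2 level was 12.07 and 11.01 in the pools before maturation and 12.19 and 11.06 in the matured pools, near the top of the arrays' range. Not all oocyte markers were bright, and SOHLH1 had means of 4.61 before and 4.82 after maturation. Of 11 oocyte markers 3 were called lower, KIT (-1.22), ZP3 (-0.70) and ZP4 (-0.40), and 0 higher. Markers of cumulus and granulosa cells were also measured. Of 15 such genes 8 were called lower and 2 higher, none lay under the lower quartile on all arrays, and the log2 of their summed level ranged from 12.73 to 13.17 before and from 11.92 to 11.99 after maturation. Fewer cells of a type and less RNA per cell cannot be told apart in such pools. With 3 arrays a group, precision is limited throughout.

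Levels are log2 values made by RMA, and a difference is the mean after minus the mean before maturation, so that a value of -1 stands for a 2-fold lower measured level. Genes were called at an adjusted p under 0.05 with limma, a linear model fitted across all 12258 probes, with Benjamini-Hochberg adjustment over all of them. Levels of different probes are not compared with each other, because probes differ in brightness for the same amount of RNA. Levels under the lower quartile of an array (4.27 to 4.45) are called dim, and background was not assessed.

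Of the 38 genes, 3 fell after maturation and 0 rose. The genes that fell were MCL1, which encodes a BCL2 relative that promotes survival, FAS, a death receptor gene, and BID, which links death receptors to mitochondria. They make up 7.89% of the genes, where 8.07% of all probes were called lower and 3.21% higher, so the share that fell was close to that of the whole array. Of 15 markers of cumulus and granulosa cells 8 had the same direction with a call and 2 the opposite one, and their part in these decreases was not tested. With each array set to a common median, 7.46% of all probes were called higher and 7.27% lower, and the same 3 genes of the 38 were called. The median difference of the 38 genes was 0.08, as was that of all probes, and 24 of the genes (63.2%) had a positive difference, against 65.4% of all probes. At an unadjusted p under 0.05, limma gave 3 genes with a positive difference (TNFRSF4, TRAF3 and TRAF4) and 4 with a negative one, 7.89% and 10.5% of the genes, against 15.8% and 13.4% of all probes. For 4 genes every array after maturation lay above every array before it, and for 5 genes below, where the same held for 21.7% and 14.4% of all probes. Of the 35 genes not called, 26 had a 95% interval that lay within a 1.5-fold change in either direction and all 35 had one within a 2-fold change. On the deposited scale a change as large as that of MCL1 was therefore not within the interval of any other of these genes. With ribosomal protein genes held level across arrays, a scaling that adds 0.46 to every difference, 30 of the genes were called higher (77.6% of all probes) and only MCL1 lower.

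**Figure D1:**
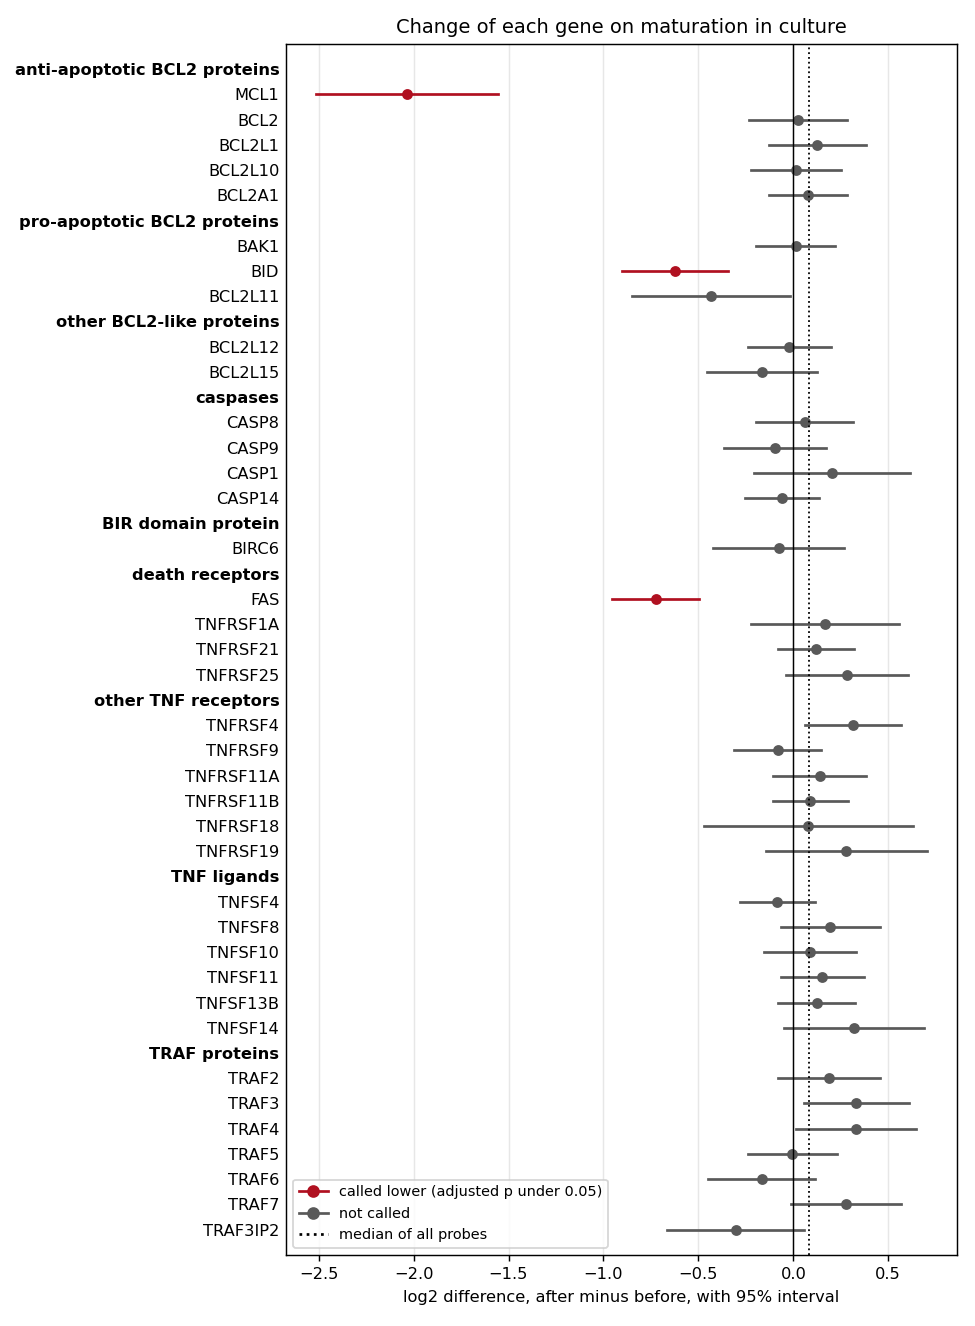
The log2 difference of each of the 38 genes, after minus before maturation, with its 95% interval from limma, ordered by role. MCL1 stands at -2.03, FAS at -0.72 and BID at -0.62, in red as called lower, and the other 35 genes lie between -0.43 and 0.33, around the dotted median of all probes (0.08).

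MCL1 showed by far the largest difference among the 38 genes. Its log2 level was 8.73, 8.19 and 8.95 before maturation in replicates 1, 2 and 3, and 6.63, 6.29 and 6.85 after it. All arrays after maturation lay below all arrays before it, and replicate 2 was the lowest in each group. The mean went from 8.62 ± 0.39 to 6.59 ± 0.28 (SD, n = 3), which is a measured 4.10-fold lower level (difference -2.03, SE 0.21, limma adjusted p = 0.00064). Between arrays of the same number the difference was -2.10, -1.90 and -2.10, which is a narrower spread than that among arrays of either group. MCL1 encodes a protein with a short life in the cell. The call held under each of the other scalings, including the one that holds ribosomal protein genes level (-1.58), and without any single array.

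The other genes that oppose membrane opening showed no such difference. BCL2, the founding member of the family, had levels of 4.58, 4.73 and 4.37 before maturation and 4.58, 4.65 and 4.52 after it, and the groups overlapped. Its difference was 0.02 with a 95% interval of -0.23 to 0.28 (limma adjusted p = 0.903). BCL2L1 had levels of 5.31, 5.07 and 4.95 before and 5.19, 5.29 and 5.23 after it, again overlapping, with a difference of 0.13 and an interval of -0.13 to 0.38. BCL2L10, a family member found in oocytes of several mammals, was bright and even, at 9.98, 9.97 and 9.92 before and 10.14, 9.84 and 9.93 after maturation. Its interval of -0.22 to 0.25 leaves room only for small changes on this scale. BCL2A1, known mainly from blood cells, was dim on all 6 arrays, at 3.38 to 3.52 before and 3.45 to 3.58 after. None of these 4 genes was called (limma adjusted p between 0.477 and 0.935), and their differences ran from 0.01 to 0.13. A difference between a pair of genes within the same array is unchanged by a scaling that adds the same amount to every probe. It can change under quantile or loess normalization. Set against BCL2, BCL2L1 and BCL2L10 in this way, the difference of MCL1 was -2.06, -2.16 and -2.05, and in each case every array after maturation lay below every array before it.

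Among genes that promote membrane opening, 1 of the 2 triggers, BID, fell, while BCL2L11 and the pore-forming BAK1 were not called. BID had levels of 6.31, 6.46 and 6.73 before maturation and 5.91, 5.80 and 5.93 after it, with no overlap. The mean went from 6.50 ± 0.21 to 5.88 ± 0.07 (SD, n = 3), which is a measured 1.54-fold lower level (difference -0.62, SE 0.12, limma adjusted p = 0.0147). The call was lost without replicate 1 or replicate 2 after maturation (adjusted p = 0.0577 and 0.066) and with ribosomal protein genes held level (-0.17). BCL2L11, which binds and neutralises MCL1 and its relatives, had levels of 7.23, 6.46 and 6.68 before and 6.36, 6.27 and 6.43 after it. Its groups did not overlap, but replicate 1 before maturation stood above the other two, and the difference of -0.43 was not called (interval -0.85 to -0.02, limma adjusted p = 0.157). Without that array it was -0.21. BAK1 had levels of 5.44, 5.39 and 5.29 before and 5.41, 5.31 and 5.44 after, with a difference of 0.01 and an interval of -0.20 to 0.22. Set against BAK1 within the arrays, the difference of BID was -0.64, again with every array after maturation below every array before it.

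The remaining BCL2-like genes differed little. BCL2L12 had levels of 5.06 to 5.13 before and 4.93 to 5.14 after maturation (difference -0.02). BCL2L15 lay between 4.13 and 4.33 before and between 3.81 and 4.25 after, and was dim on 5 of 6 arrays (difference -0.17). Neither was called, and the groups overlapped for both.

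**Figure D2:**
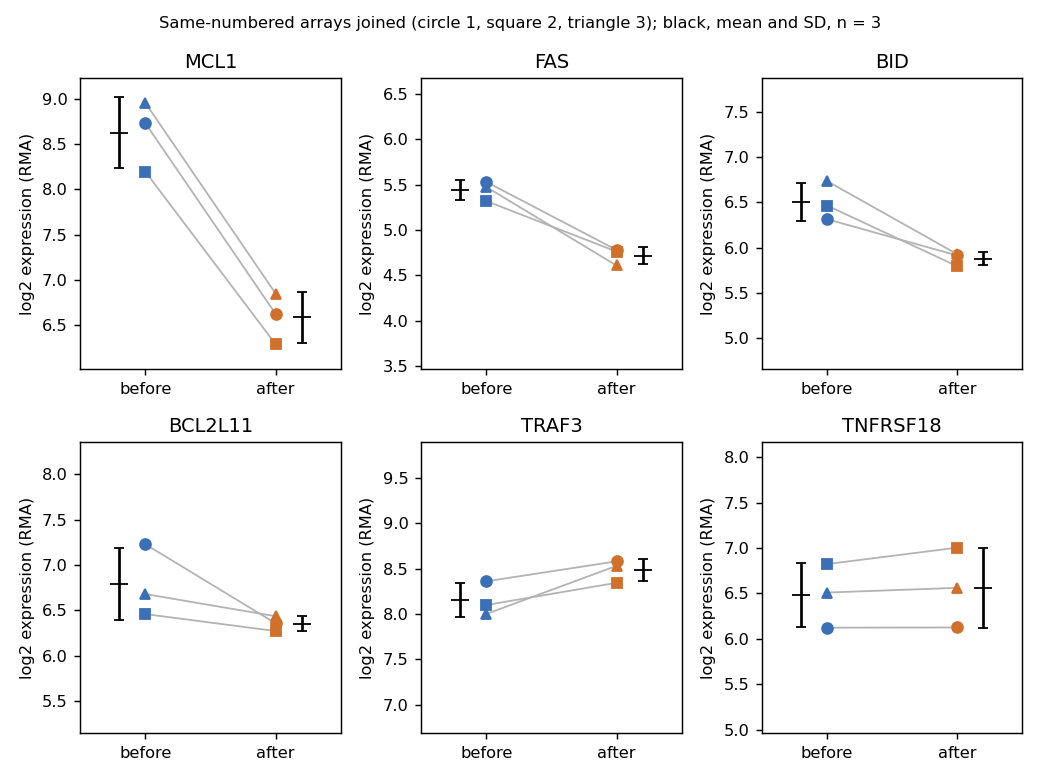
Log2 level of MCL1, FAS, BID, BCL2L11, TRAF3 and TNFRSF18 on each array, with lines joining arrays of the same replicate number, and the mean and SD of each group in black. The vertical axes cover the same span of log2 units in all panels, so the drop of MCL1 (-2.10, -1.90 and -2.10 by number) can be set beside the smaller ones of FAS and BID and the near-level lines of TNFRSF18.

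Of the caspase genes, those for the initiators CASP8 and CASP9 were measured, as were CASP1 and CASP14, and none was called. CASP8, which death receptors activate, was dim on all arrays, at 3.20, 3.43 and 3.22 before and 3.33, 3.49 and 3.21 after maturation (difference 0.06, interval -0.20 to 0.31). CASP9, which the mitochondrial route activates, had levels of 5.12, 4.95 and 5.04 before and 4.96, 5.11 and 4.73 after it (difference -0.10, interval -0.37 to 0.17). The groups overlapped for both of these initiators. CASP1, which processes interleukin-1 beta, ran from 4.89 to 5.63 before and from 5.42 to 5.66 after, and its 95% interval reached 0.62. CASP14, a caspase of the skin, was dim on all arrays and had a difference of -0.06. BIRC6, a large protein that restrains caspases and ubiquitinates its targets, was bright at 8.58, 8.70 and 9.17 before and 8.68, 8.81 and 8.73 after maturation. Replicate 3 before maturation was the highest of its 6 arrays, and the difference of -0.08 was not called (interval -0.42 to 0.27).

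Of FAS and the 9 genes with a TNFRSF symbol, only FAS passed the test. Its levels were 5.53, 5.32 and 5.47 before and 4.78, 4.76 and 4.61 after maturation, and the groups stood clear of each other. The mean went from 5.44 ± 0.11 to 4.72 ± 0.09 (SD, n = 3), which is a measured 1.65-fold lower level (difference -0.72, SE 0.10, limma adjusted p = 0.0029). After maturation FAS lay only slightly above the dim range, so the measured fold may understate the true one. The call held without any single array and was lost with ribosomal protein genes held level (-0.27). TNFRSF1A, the main receptor of TNF, had levels of 7.85, 7.44 and 7.52 before and 8.08, 7.47 and 7.76 after it, with overlap and a difference of 0.17 (interval -0.22 to 0.56). Set against TNFRSF1A within the arrays, the difference of FAS was -0.89, with no overlap between the groups. The death receptor genes TNFRSF25 and TNFRSF21 had differences of 0.28 and 0.12 and were not called, and TNFRSF21 was dim on all arrays.

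None of the 6 other TNF receptor genes, those not grouped as death receptors, was called, and 5 had a positive difference, as did 65.4% of all probes. TNFRSF4 (OX40), a costimulatory receptor of T cells, came closest to the threshold, with levels of 5.66, 5.73 and 5.64 before maturation and 5.90, 6.20 and 5.87 after it. All arrays after maturation lay above all arrays before it, with a difference of 0.31 (interval 0.06 to 0.57, limma adjusted p = 0.107). TNFRSF18 (GITR), another receptor of T cells, varied more among pools than between groups. Its levels were 6.12, 6.82 and 6.51 before and 6.12, 7.00 and 6.56 after, with replicate 2 the highest and replicate 1 the lowest in both groups. TNFRSF19 ran from 4.59 to 5.05 before and from 4.84 to 5.49 after maturation, with a difference of 0.28. TNFRSF9 (4-1BB) was dim on all arrays and had a difference of -0.08. Of 9 leukocyte markers 1 was called higher, CD3E of T cells (0.48, limma adjusted p = 0.0418), and 3 (PTPRC, AIF1 and CD4) were dim on all arrays. All 9 had a positive difference. For 5 of them (55.6%) every array after maturation lay above every array before it, against 21.7% of all probes. The log2 of the summed level of the 9 was 8.75 to 8.86 before and 9.002 to 9.12 after maturation. Of 6 endothelium markers 0 were called, but all 6 also had a positive difference, and 2 (33.3%) had every array after maturation above every array before it. The median difference was 0.24 in both marker sets. The lower quartile of the arrays was itself 4.27 to 4.30 before and 4.33 to 4.45 after maturation. The part of leukocytes, or of this shift, in the values of T cell receptors was not tested.

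The ligand genes were mostly dim. TNFSF4, TNFSF8, TNFSF10 (TRAIL), TNFSF11 (RANKL) and TNFSF13B (BAFF) lay under the lower quartile on all 6 arrays, and their differences ran from -0.09 to 0.20. Across all 38 genes 11 were dim in this sense, 28.9%, against 20.2% of all probes. TNFSF14 (LIGHT) was the only ligand gene of the 6 above that line, at 5.68, 5.82 and 5.54 before and 5.76, 6.36 and 5.87 after maturation. Its groups overlapped and its difference of 0.32 was not called (interval -0.05 to 0.69). TNFSF11 and TNFSF13B had non-overlapping groups, at 3.65 to 3.71 against 3.74 to 3.96 and 3.38 to 3.40 against 3.44 to 3.60. Their differences of 0.15 and 0.12 were small and were not called. The receptor of TNFSF11, TNFRSF11A (RANK), had a difference of 0.14, and its soluble decoy TNFRSF11B (osteoprotegerin) one of 0.09. The ligand TNFSF4 had a difference of -0.09 where its receptor TNFRSF4 had 0.31, and neither passed the test.

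**Figure D3:**
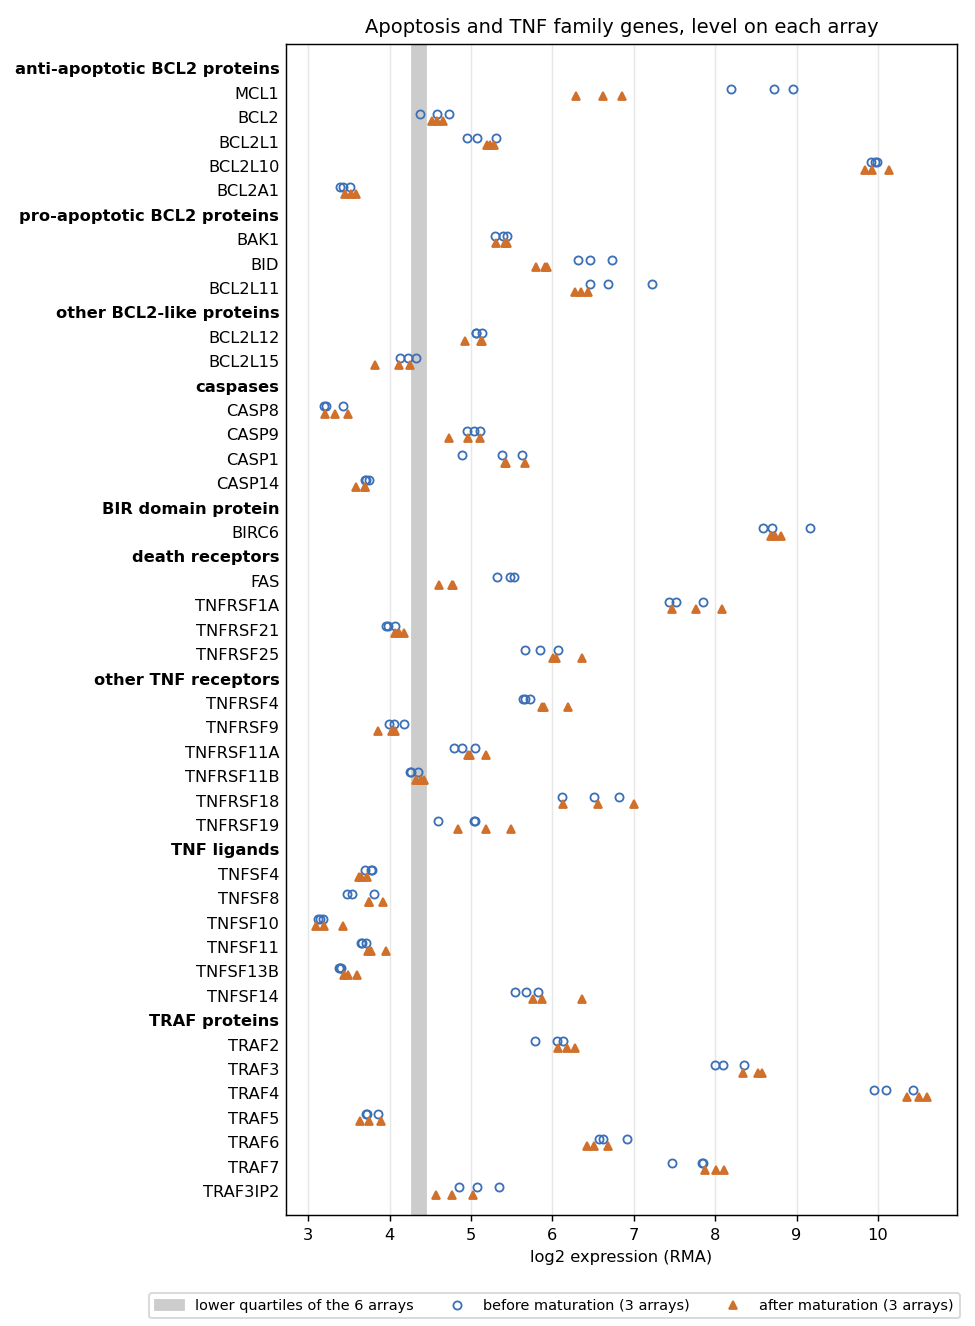
Log2 level of each of the 38 genes on each array, with open circles before and triangles after maturation, and the lower quartiles of the 6 arrays (4.27 to 4.45) as a grey band. The groups stand clearly apart for MCL1, FAS and BID, and 5 of the 6 ligand genes lie left of the band on all arrays. Brightness is not comparable between genes.

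Of the 7 TRAF genes, whose products mostly carry signals from TNF receptors, none passed the test, although TRAF3 and TRAF4 had the largest positive differences of the 38 genes. TRAF3, an adaptor that restrains the alternative NF-kappaB pathway, had levels of 8.36, 8.10 and 7.9996 before maturation and 8.58, 8.34 and 8.53 after it. The groups overlapped slightly, and the difference was 0.33 (interval 0.05 to 0.61, limma adjusted p = 0.117). Without replicate 1 before maturation TRAF3 was called higher (0.44, adjusted p = 0.0495). TRAF4 was bright, at 10.10, 10.44 and 9.95 before and 10.50, 10.36 and 10.60 after it, with a difference of 0.33 (adjusted p = 0.158). TRAF7, a RING finger protein of the family, had levels of 7.85, 7.84 and 7.47 before and 8.10, 7.88 and 8.01 after, with no overlap and a difference of 0.28 (adjusted p = 0.187). The spread among pools before maturation was thus of the size of these differences. TRAF2, the adaptor of TNF receptor signalling, had levels of 6.05, 6.12 and 5.78 before maturation and 6.17, 6.28 and 6.07 after it (difference 0.19, interval -0.08 to 0.46). TRAF6, which serves interleukin-1 and Toll-like receptors as well, had levels of 6.57, 6.62 and 6.92 before and 6.51, 6.43 and 6.68 after it (difference -0.17, interval -0.45 to 0.11). TRAF5 was dim on all arrays and had a difference of -0.0049. TRAF3IP2 (Act1), an adaptor of interleukin-17 receptors, had levels of 5.08, 4.85 and 5.34 before maturation and 4.57, 4.76 and 5.02 after it, with a difference of -0.30 that was not called.

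Other genes of these pathways, with names outside the rule, had a median difference near that of all probes. Of 72 listed genes 49 were measured. Of these, 2 fell (4.08%) and 1 rose (2.04%), both below the shares of all probes (8.07% and 3.21%). The median difference of the 49 was 0.05, and the shares depend on the setting, as given below for the block. EDA, which encodes ectodysplasin, a ligand of the TNF family named for skin development, was the largest of these, with levels of 8.40, 8.46 and 8.76 before maturation and 4.87, 5.06 and 4.97 after it. That is a measured 11.9-fold lower level with the groups far apart (difference -3.57, limma adjusted p = 2.18e-06). Its receptor gene EDAR had a difference of 0.11 and was not called. RIPK3, a kinase gene of necroptosis, fell by 0.69 (limma adjusted p = 0.0033), from 4.89, 4.66 and 4.87 to 4.14, 4.15 and 4.06, where it was dim after maturation. That call was lost with ribosomal protein genes held level (-0.23). NGFR, the low-affinity neurotrophin receptor and a member of the TNF receptor family, rose by 0.49 (limma adjusted p = 0.0236), from 6.003, 5.70 and 5.86 to 6.35, 6.41 and 6.26. It lost the call without replicate 1 or 2 after maturation and without replicate 2 or 3 before it (adjusted p between 0.0527 and 0.0899). TNF itself was dim on all arrays, with a difference of -0.01.

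With the replicate number as a block, 7 of the 49 other pathway genes (14.3%) were called lower and 1 (2.04%) higher, against 10.0% and 5.07% of all probes, so the share called lower was above that of all probes, whereas it was below it without the block. The genes added were VDAC2 (-0.96), a channel of the outer mitochondrial membrane, DIABLO (-0.66), a mitochondrial inhibitor of the inhibitors of apoptosis, CFLAR (-0.58), a decoy that blocks caspase 8, RELA (-0.48), a subunit of NF-kappaB, and MDM2 (-0.46), the ubiquitin ligase of p53. Their adjusted p in the blocked limma fit lay between 0.00531 and 0.0363, and without the block between 0.0529 and 0.187. VDAC2 had levels of 7.55, 7.96 and 8.67 before maturation and 7.02, 6.87 and 7.41 after it, with replicate 3 the highest in each group. CFLAR had levels of 4.30, 4.36 and 4.87 before and 3.99, 3.67 and 4.14 after, again with replicate 3 the highest, and it was dim after maturation. In the fit without the block, 8 of the 15 cumulus and granulosa markers were called lower, 2 (HSD3B1 and GSTA1) higher and 5 neither. The part of such cells in the values of the genes added by the block was not tested. The block changed no call among the 38 genes.

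**Figure D4:**
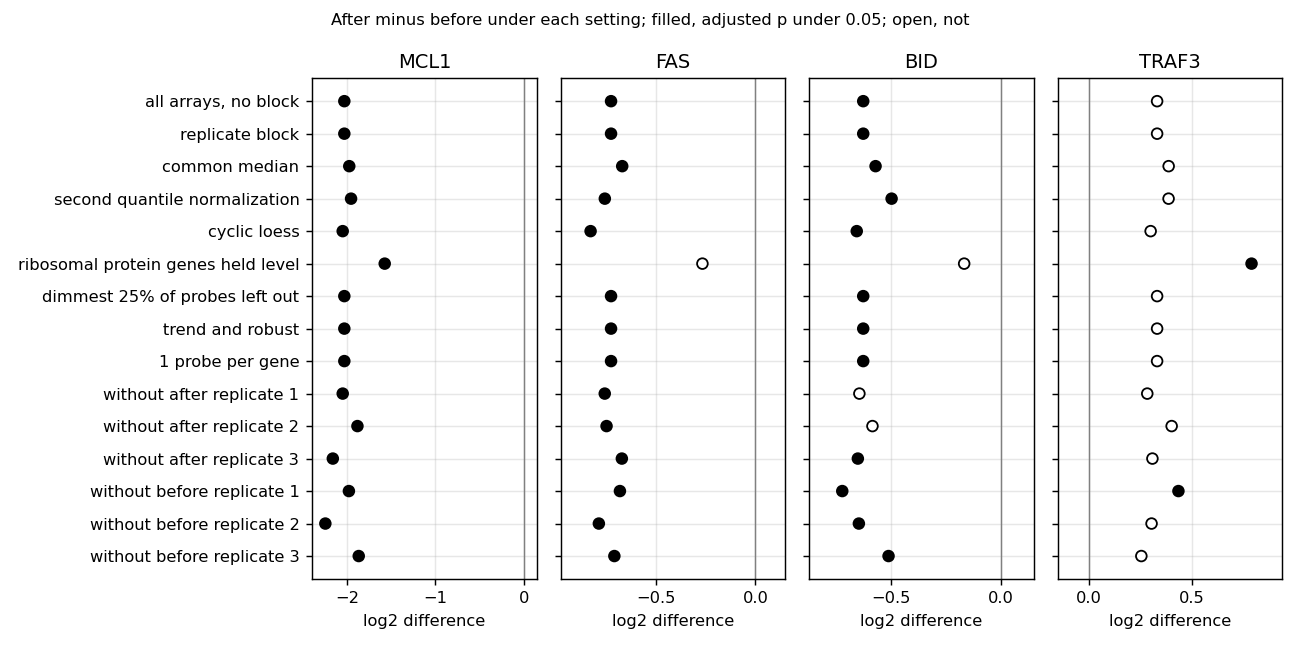
Log2 difference of MCL1, FAS, BID and TRAF3 after minus before maturation under each setting, filled where the adjusted p was under 0.05 and open where it was not. MCL1 is filled throughout, FAS is open only with ribosomal protein genes held level (-0.27), BID is open there and without replicate 1 or 2 after maturation, and TRAF3 is filled only with ribosomal protein genes held level and without replicate 1 before maturation.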

How the data were processed

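The deposited table holds log2 expression values of 6 arrays, made by the authors with RMA, per the submitters' processing notes, from 100 ng of RNA after 2 rounds of amplification, per the labels' protocols. The log2 scale follows from the use of RMA and from the values' range. The version, options and probe filter of RMA were not given in the sources used here. RMA as usually run quantile-normalizes arrays, which can hide a change of total RNA. Probes were named from the platform annotation. Of 12258 probes 10715 had 1 symbol, 475 several and 1068 none, and all 38 genes carried the same symbol in the RefSeq table of Sscrofa11.1. All probes were fitted with limma 3.58.1 in R 4.3.3 (lmFit, eBayes, two-sided, adjusted over all probes). An exact permutation test of 3 against 3 arrays cannot go below p = 0.1. Intervals are 95% intervals of the fit, not adjusted for the number of genes.

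Same-numbered arrays deviated together from their group means (correlations 0.283, 0.120 and 0.142). All exceed 0.1, and the numbers were treated as a possible pairing. Correlations between arrays of different numbers were not computed for comparison. The main fit, with its calls and intervals, did not use the pairing, and the block was run as an alternative. The labels themselves only speak of biological replicates. The p-values measure the spread between these pools. On simulated data of 12258 probes the fit called 40 of 40 at a log2 change of -2, 37 of 40 at -1, 36 of 40 at 1, 10 of 40 at -0.5, 7 of 40 at 0.5, and 9 of 12058 unchanged. Changes near 0.5 were mostly missed in that simulation. It changed far fewer probes than were called in the data (394 higher and 989 lower). Its adjusted cutoff was therefore stricter, and it does not give the share of such changes missed in the data.

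Genes named are all called members, uncalled members with a difference of at least 0.5 (there were none), 16 preset genes of which 11 were measured, and called genes of the pathway list. Other members, and the genes added by the block, were named beside their counts after their values were seen. Alternatives were the replicate block, 4 other scalings, a filter on dim probes, another model of the spread, 1 probe per gene and leaving out each of 6 arrays. The members and lists were chosen with earlier results of these data known. Software for tables and figures was pandas 2.3.3 and matplotlib 3.10.9 under Python 3.11.15.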

Additional observations from a re-analysis of the deposited data

How the results depend on the processing

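Among the 38 genes, 3 were called lower and 0 higher with the replicate block, with each array at a common median, after a second quantile normalization, with cyclic loess, without the dimmest 25% of probes, with trend and robust set and with 1 probe per gene. With the 41 probes of ribosomal protein genes held level, 30 were called higher and 1 lower, and BCL2L12, CASP14, BIRC6, TNFRSF9, TNFSF4 and TRAF5 turned to called increases (0.44, 0.40, 0.38, 0.38, 0.37 and 0.45), because that scaling adds the same amount to every probe. Leaving out single arrays gave 0 to 1 genes called higher and 2 to 3 lower. For the 49 other pathway genes these ranges were 0 to 1 and 2 to 4. In that list 4 were called higher with a common median, 3 after a second quantile normalization and 2 with cyclic loess. Without the dimmest probes 2 were called higher, and with ribosomal protein genes held level 31. Lower calls numbered 7 with the replicate block, 5 with trend and robust set, 4 with cyclic loess and 4 without the dimmest probes. Of all probes, 10.0%, 8.33%, 8.61% and 11.2% were called lower in these settings, the last among the probes kept. The share of the 49 genes was above these with the block and with trend and robust set, and below with cyclic loess. How many of the 49 the filter on dim probes kept was not counted, so that share was not compared. Over all probes, 394 higher and 989 lower calls became 621 higher with the replicate block, 254 higher with cyclic loess, 915 higher and 891 lower with a common median, 596 higher and 866 lower after a second quantile normalization, and 9516 higher and 535 lower with ribosomal protein genes held level. Without single arrays they ran from 103 to 434 and from 531 to 1013. The causes of these shifts in counts were not tested. Fits without a single array also had fewer arrays, yet without replicate 1 before maturation the counts were 434 and 1013. Set against the median of the 38 genes in each array, an alternative chosen after seeing the data, MCL1, FAS and BID had differences of -1.99, -0.68 and -0.59. Changes near the dim range are bounded by signal over background, which was not assessed.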
